A study of Mus musculus with 3 samples.

Results

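The cytosolic ribosomal protein genes were taken by gene symbol: Rpsa, and every symbol made of Rpl, Rps or Rplp, a number and an ending of a, x or l. The rule took 89 of the 46603 genes in the count tables. Of these, 77 were canonical genes (31 for the small 40S subunit and 46 for the large 60S subunit) and 12 were paralogs or copies, whose symbols are formed from that of a canonical gene. GENCODE annotated 84 of the 89 as protein-coding and 5 of the paralogs or copies (Rps3a2, Rps3a3, Rps4l, Rps12l1 and Rpl6l) as pseudogenes. Fau, which encodes a ribosomal protein fused to a ubiquitin-like domain, and Rack1, a protein of the 40S head, have other symbols and were not members.

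Polyadenylated RNA was sequenced from mouse embryonic fibroblasts that lack β-actin and carry a β-actin tagged with a nuclear localisation signal, called KO-actin cells. There were 3 libraries of this 1 condition, so no comparison of conditions was possible. The labels give neither a drug treatment, an age nor a time. They do not say whether the libraries came from separate cultures or clones, so p-values apply to these libraries only. Those p-values concern departures from counting error or the sign of log ratios over the 3 libraries, not the spread between cultures. The Actb row held 53814, 54883 and 47505 counts; a count per gene cannot tell the knocked-out locus from the tagged transgene.

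Each cytosolic ribosome contains a single copy of almost every ribosomal protein, wrapped around the ribosomal RNAs of a 40S subunit, which reads the mRNA, and a 60S subunit, which joins the amino acids. The genes are active in every dividing cell. Their mRNAs belong to a class that starts with a tract of pyrimidines, through which growth signals set how strongly they are translated. The mammalian genome also holds many processed copies of these genes, made by reverse transcription of their mRNAs.

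The libraries held between 44383636 and 49932446 counts. All 10 fibroblast markers were above 3 counts in every library. Their sum was between 12445 and 13462 counts per 1000000 (CPM, on library sizes scaled by TMM). Most of this sum came from Vim, Col1a1 and Fn1, at means of 4563, 4058 and 3578 CPM. Of the 10 markers, 6 reached a mean of 100 CPM. The others were S100a4, Col1a2, Pdgfra and Thy1, at means of 31.2, 20.99, 4.97 and 0.836 CPM. The epithelial markers Epcam, Cdh1 and Cldn4 and the blood markers Ptprc, Lyz2, Hba-a1 and Hbb-bs were at or under 3 counts in at least 1 library. The highest of these lists were Krt19, at a mean of 44.1 CPM, and Cd74, at 11.3 CPM. All 6 neuronal markers were above 3 counts in every library, with Map2 highest at 40.9 CPM. The epithelial list summed to at most 88.9 CPM, the blood list to at most 12.9 CPM and the neuronal list to at most 57.3 CPM, against which the part of other cells in the results was not tested.

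Ribosomal protein mRNAs took 2.96%, 3.12% and 3.02% of the counts in replicates 1, 2 and 3, a mean of 3.03% ± 0.0776 (SD, n = 3). All 77 canonical genes and 7 of the 12 paralogs had at least 10 counts in every library. The median canonical gene was at 264 CPM, against 27.5 CPM over the 13814 genes that passed the same minimum. Among the 100 genes of highest CPM, 9 were ribosomal protein genes, and 30 were among the highest 500. The 10 members of highest CPM held 41.5% ± 0.739 of the members' counts.

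Rpl8, which encodes a 60S protein near the peptidyl transferase centre, had the highest CPM of the members. It was at 1977, 2139 and 2009 CPM in replicates 1 to 3. Rplp0, the base of the acidic stalk that recruits translation factors, was at 1954, 2004 and 1923 CPM. The other stalk genes were lower: Rplp1 was at 1161, 1402 and 1221 CPM and Rplp2 at 295, 353 and 300 CPM. In each of these stalk genes replicate 2 was the highest library.

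Also among the 10 highest by CPM were Rpl4, Rpl41, Rpsa, Rps15, Rps4x and Rps3, at means of 1499, 1203, 1160, 977, 889 and 821 CPM. Rps3 and Rps15 encode proteins of the 40S head and Rpsa one of its solvent side. Rpl41 is the smallest of the proteins. Its whole coding sequence is 78 bases long, and it is printed because it is the shortest of the canonical genes. The principal transcript of Rpl41 is not as short, with 582 bases against 499 for Rplp1 and 500 for Rps15. Rpl41 lies on GRCm38 at chr10:128548114-128549305, minus strand.

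Rpl41: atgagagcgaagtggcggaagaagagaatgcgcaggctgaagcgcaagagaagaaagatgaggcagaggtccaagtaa

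To compare genes, CPM was divided by the length of the exons joined over all transcripts of the gene, in kilobases (CPM per kb). The canonical genes then ran from 7.24 ± 0.266 for Rpl5 to 2527 ± 251 for Rplp1 (SD, n = 3), and the 90th percentile was 26.4 times the 10th. The 5 highest on this scale were Rplp1, Rps15, Rpl8, Rplp0 and Rpl41, at 2527, 1551, 1502, 1182 and 1030 CPM per kb. The 5 lowest were Rpl5, Rps27, Rpl24, Rps13 and Rps12, at 7.24, 8.49, 10.1, 11.1 and 16.02 CPM per kb. Dividing instead by the length of the principal transcript, a choice made after the data were seen, gave a ratio of 15.2 between those percentiles. Lengths joined over all transcripts include retained introns, and the part of the gene models in the range was not tested.

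**Figure D1:**
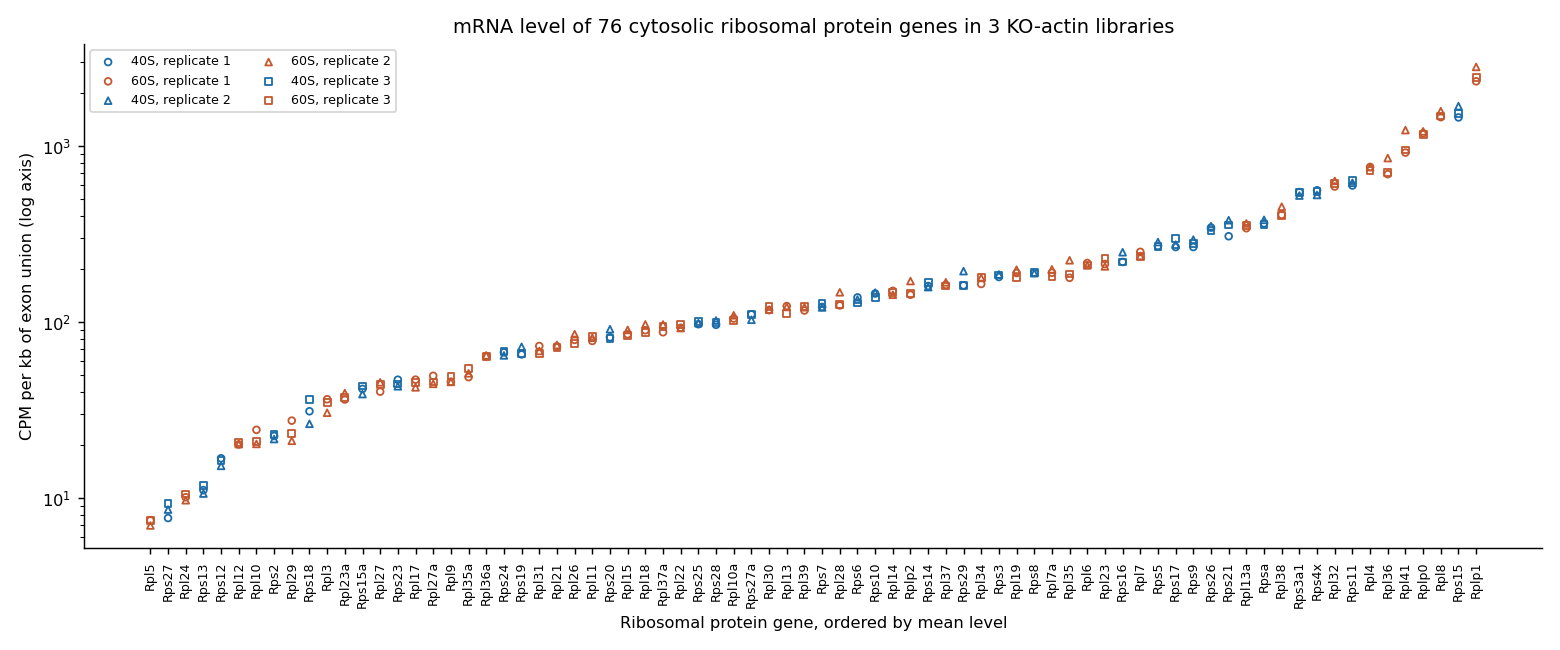
CPM per kb of exon union on a log axis for 76 of the 77 canonical genes, ordered by mean level, with 1 point per library (circle, triangle and square for replicates 1, 2 and 3) and the subunit in colour. The points of 1 gene lie close together next to the 349-fold range between Rpl5 and Rplp1.

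The 40S genes had a median of 145, 146 and 138 CPM per kb in replicates 1, 2 and 3, and the 60S genes 116, 119 and 117 CPM per kb. The 60S median was below the 40S median in every library, and their ratio was 0.821 ± 0.0224 (SD, n = 3; exact sign-flip permutation test, two-sided, p = 0.25, the smallest that 3 libraries allow). The order of the subunits turned with the choice of genes. Over the 12 canonical genes with under 10% of longest-transcript 50-base windows in another gene (8 of the 40S and 4 of the 60S), the 60S median was 1.46 times the 40S median.

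Rpl5 and Rpl11 encode partners in the 5S RNA particle, which also binds Mdm2. Rpl11 was at 210, 219 and 223 CPM, and Rpl5, the lowest canonical gene per kb, was at 29.0, 27.2 and 29.0 CPM. Per kb of exon union they were at 80.5 and 7.24. For both genes every 50-base window of the coding sequence also occurs in another gene. Gm15500, a processed copy of Rpl5, was at a mean of 53.2 CPM. The part of read assignment in the difference between Rpl5 and Rpl11 was not tested. Rps6, the 40S protein that S6 kinases phosphorylate, was at 218, 212 and 203 CPM. Rps19, the gene most often mutated in Diamond-Blackfan anaemia, was at 305, 337 and 309 CPM. Rps27a, whose product is made as a fusion to ubiquitin, was at 217, 202 and 216 CPM. Per kb of exon union, Rps6 was at 133, Rps19 at 67.7 and Rps27a at 107.

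Outside the symbol rule, Rack1 had a mean of 1138 ± 17.6 CPM and Fau of 72.7 ± 5.0 CPM (SD, n = 3). Per kb of exon union these were 222 and 75.7.

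Several ribosomal proteins have a paralog gene with a restricted expression, such as Rpl3l in striated muscle and Rpl10l and Rpl39l in testis. Rpl10l, Rpl39l and Rps4l had 0 counts in every library, which allows at most 3 counts per library, or up to 0.0671 CPM in the shallowest. The canonical partners were well above that: Rpl10 had 2486, 2041 and 1918 counts, Rpl39 had 8281, 8538 and 7784, and Rps4x had 45439, 42215 and 40178. Per kb of exon union, Rpl39l was at least 1504-fold lower than Rpl39. Rpl10l was at least 319-fold lower than Rpl10 and Rps4l at least 7743-fold lower than Rps4x. Rpl3l had 1, 1 and 7 counts, beside 5737, 4748 and 4918 for Rpl3.

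The coding sequences of Rpl39l and Rpl39 have 156 bases each and are 85.3% identical. They are printed in full, with the 23 bases that differ in capitals, since no 50-base window of the Rpl39l transcript occurs in another gene. The genes lie on GRCm38 at chr16:10170226-10174911 (plus strand) and chrX:37082520-37085402 (minus strand).

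Rpl39l: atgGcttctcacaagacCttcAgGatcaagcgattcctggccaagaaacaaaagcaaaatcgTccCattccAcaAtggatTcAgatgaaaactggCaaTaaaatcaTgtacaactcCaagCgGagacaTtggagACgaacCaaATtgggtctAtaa
Rpl39: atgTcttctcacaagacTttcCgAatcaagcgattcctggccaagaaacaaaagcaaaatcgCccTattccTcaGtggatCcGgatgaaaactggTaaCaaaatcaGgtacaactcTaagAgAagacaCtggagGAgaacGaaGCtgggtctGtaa

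Rps27l, which is also a target of p53, went the other way from Rpl39l. It had 4912, 5065 and 4767 counts, and Rps27 had 398, 439 and 433. In every library the paralog was the higher gene. Per kb of exon union the difference was 3.89 ± 0.08 on the log2 scale (SD, n = 3), or 14.8-fold; per kb of the principal transcript it was 8.03-fold. The exact sign-flip permutation test gave p = 0.25, also after adjustment over the 4 testable pairs. All 50-base windows of the Rps27 coding sequence also occur in another gene, against 49.0% for Rps27l. Rps27rt, a copy identical to Rps27 over all 255 coding bases, was at 1.77 CPM.

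The Rps27l and Rps27 coding sequences have 255 bases each and differ at the 61 bases in capitals. They are printed because this pair shows the largest excess of a paralog. Rps27l is at chr9:66946086-66949516 (plus strand) and Rps27 at chr3:90212522-90213651 (minus strand) on GRCm38.

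Rps27l: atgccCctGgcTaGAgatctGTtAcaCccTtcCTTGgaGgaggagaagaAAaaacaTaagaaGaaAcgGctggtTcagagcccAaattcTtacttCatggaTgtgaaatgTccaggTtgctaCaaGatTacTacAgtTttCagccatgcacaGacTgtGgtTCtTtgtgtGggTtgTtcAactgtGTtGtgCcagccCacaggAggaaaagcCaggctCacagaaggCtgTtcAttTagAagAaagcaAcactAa
Rps27: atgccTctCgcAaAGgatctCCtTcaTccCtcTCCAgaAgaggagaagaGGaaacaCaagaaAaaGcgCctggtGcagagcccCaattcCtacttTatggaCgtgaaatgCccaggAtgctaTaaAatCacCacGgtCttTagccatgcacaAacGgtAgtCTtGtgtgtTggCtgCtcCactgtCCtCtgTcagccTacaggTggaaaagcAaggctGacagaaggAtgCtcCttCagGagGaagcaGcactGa

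In the other testable pairs, Rpl7l1 had 11741, 11273 and 10265 counts and Rpl7 33456, 31322 and 28202. Per kb of exon union Rpl7l1 was lower by 3.63-fold, and Rpl22l1 was lower than Rpl22 by 5.997-fold. Rpl22l1 had 1465, 1535 and 1456 counts and Rpl22 had 13397, 13201 and 12520. Per kb of the principal transcript Rpl7l1 was lower by 6.26-fold and Rpl22l1 by 2.36-fold, so the length used sets which pair differs more. Rpl36al was 1.75-fold above Rpl36a per kb of exon union (log2 difference 0.80 ± 0.12) but 1.85-fold below it per kb of the principal transcript, so its order depends on the length used. The coding identity to the canonical gene was 54.0% for Rpl7l1, 68.2% for Rpl22l1 and 87.9% for Rpl36al. Each of these exact tests gave p = 0.25.

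**Figure D2:**
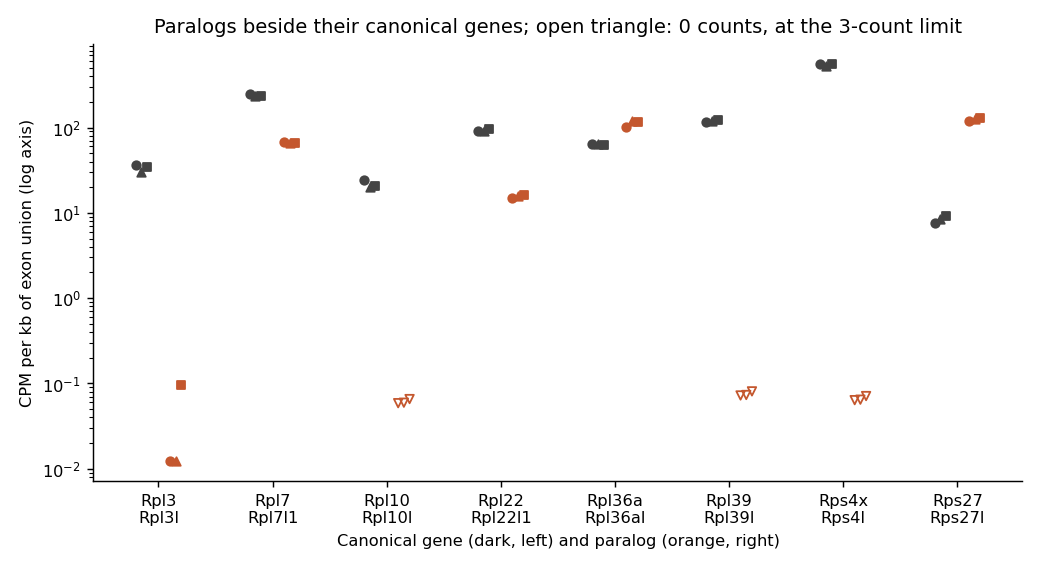
CPM per kb of exon union on a log axis for 8 paralogs (orange) beside their canonical genes (dark), with 1 point per library; open triangles stand for 0 counts and are drawn at the 3-count limit. Rps27l lies above Rps27, while Rpl10l, Rpl39l and Rps4l lie at the limit in all 3 libraries.

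Of the paralogs annotated as pseudogenes and not yet named, Rps3a2 was at 53.4 CPM, Rps3a3 at 15.5 CPM and Rpl6l at 1.61 CPM, and Rps12l1 had 8, 4 and 10 counts. The Rps3a2 and Rps3a3 transcripts are 99.1% and 98.9% identical to the Rps3a1 coding sequence. These levels are therefore uncertain where reads matching more than 1 gene were assigned to either. How such reads were counted is not given in the sources used here.

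The same limit touches the canonical genes. Of the 50-base windows in the coding sequence, a median of 92.4% occurred in the transcripts of another gene of any kind, processed copies and overlapping genes included, on either strand. Over the longest transcript the median was 35.3%. That transcript was taken from all types, so it can hold untranslated ends or retained introns and can lack coding sequence. For Rps19 it has 2657 bases, against 774 in the principal transcript. There 2.68% of its windows were shared, against 80.5% of the coding windows. The coding sequence was taken as a measure after the data were seen. For 27 of the 77 genes every coding window was shared, for 10 genes less than 50% were, and 40 lay between.

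The levels differed between these groups. The median per kb of the principal transcript was 741 CPM for the 10 genes with the least shared coding sequence, 348 for the 40 between and 195 for the 27 fully shared. The group medians kept this order in each library: 681, 791 and 749 for the least shared, 338, 354 and 346 for those between, and 190, 190 and 205 for the fully shared. Across the 77 genes, which share libraries and are not independent replicates, Spearman's rho between the shared coding share and the level was -0.50. It was -0.32 for windows of the principal transcript and -0.19 for those of the longest transcript. The CPM of pseudogenes sharing at least 10% of a gene's principal-transcript windows was also added to that of the gene. The group medians were then 741, 382 and 200, and the rho values -0.54, -0.21 and -0.07, each in the same order as above. The 10 lowest genes each had at least 84.2% of coding windows shared, against 58 of all 77 genes at or above 80% and 2 of the 10 highest. Among the 12 genes with under 10% of longest-transcript windows shared, the 90th percentile was 7.47 times the 10th per kb of principal transcript and 5.03 times per kb of exon union, against 15.2 and 26.4 over all 77 genes. These 12 are not the genes of least shared coding sequence: 5 of them had at least 80% of coding windows shared. Whether the counting of shared reads sets these levels was not tested.

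**Figure D3:**
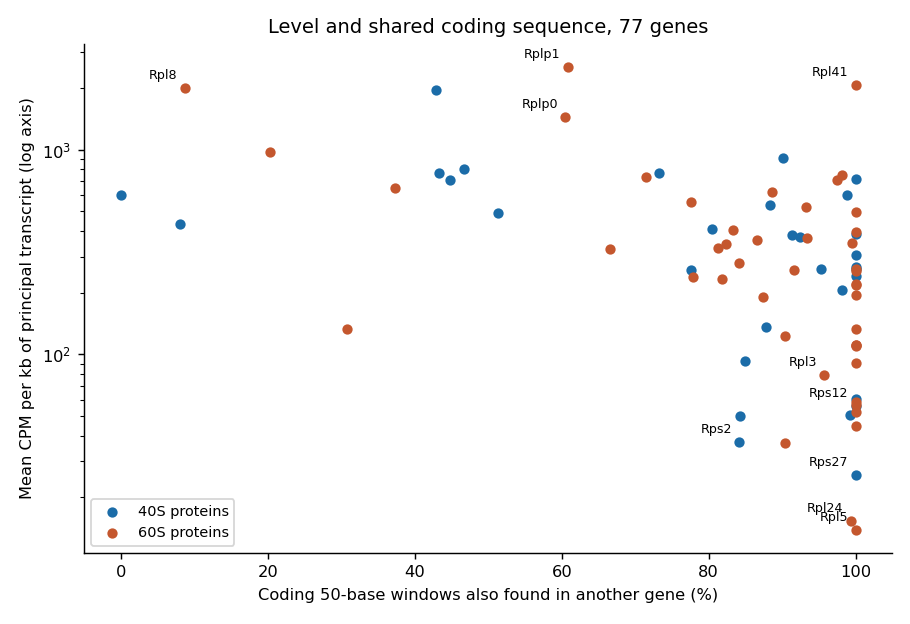
Share of 50-base coding windows found in another gene (percent) against the mean CPM per kb of principal transcript (log axis) for the 77 canonical genes, coloured by subunit. Genes below 60 CPM per kb lie at the right edge, above 84% shared, while Rpl41 is high although its coding windows are all shared.

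Some processed copies had more counts than the gene they came from. On the CPM scale, a row annotated as a pseudogene that shares windows with the gene exceeded it for 6 canonical genes: Rps2, Rpl3, Rpl5, Rpl23a, Rpl26 and Rpl29. Rps2, a 40S protein at the mRNA entry side, had 2046, 1939 and 1874 counts, and its copy Rps2-ps10 had 34006, 39431 and 29135. Per kb of principal transcript they were at 37.3 and 737 CPM, and per kb of exon union Rps2 was at 22.3. The copy is 99.4% identical to the coding sequence. Another copy, Rps2-ps13, was at 254 CPM.

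Rpl3, a large 60S protein beside the peptidyl transferase centre, had 5737, 4748 and 4918 counts, and Rpl3-ps1 had 24680, 26163 and 22461. Per kb of principal transcript the gene was at 79.3 and the copy at 421 CPM. Rpl26 was at 114, 123 and 109 CPM and its copy Gm15772 at 284, 283 and 283 CPM, which is 190 and 647 per kb. In both pairs the copy was higher in every library. The copy of Rpl5, Gm15500, is identical over all 894 coding bases and was at 52.3 CPM per kb, against 13.9 for Rpl5. Rplp0 stayed above its copy Gm8730, at 1444 against 597 CPM per kb of principal transcript.

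Rps12-ps3, annotated as protein-coding despite its name and identical to Rps12 over all 399 coding bases, was at 174 CPM per kb, against 55.6 for Rps12. Rpl23a-ps3, at 43.3 CPM, completes the copies of highest level named here. In all, 269 genes carry the name of a member with a pseudogene ending. Of these 89 passed the minimum of 10 counts and 78 had no count, and together they took 0.186% ± 0.0044 of the counts (SD, n = 3). The 5 highest of them held 86.2% of that.

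Bases 117 to 236 of the Rpl26 coding sequence are printed beside the same stretch of Gm15772, because a single base in capitals is all that separates gene and copy there. The loci are chr11:68901583-68906989 and chr5:3236431-3236868 on GRCm38, both on the plus strand.

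Rpl26: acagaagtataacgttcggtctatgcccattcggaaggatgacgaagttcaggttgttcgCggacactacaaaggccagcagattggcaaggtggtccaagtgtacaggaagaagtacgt
Gm15772: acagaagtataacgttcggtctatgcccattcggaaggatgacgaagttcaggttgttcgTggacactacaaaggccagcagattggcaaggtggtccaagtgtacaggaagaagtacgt

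**Figure D4:**
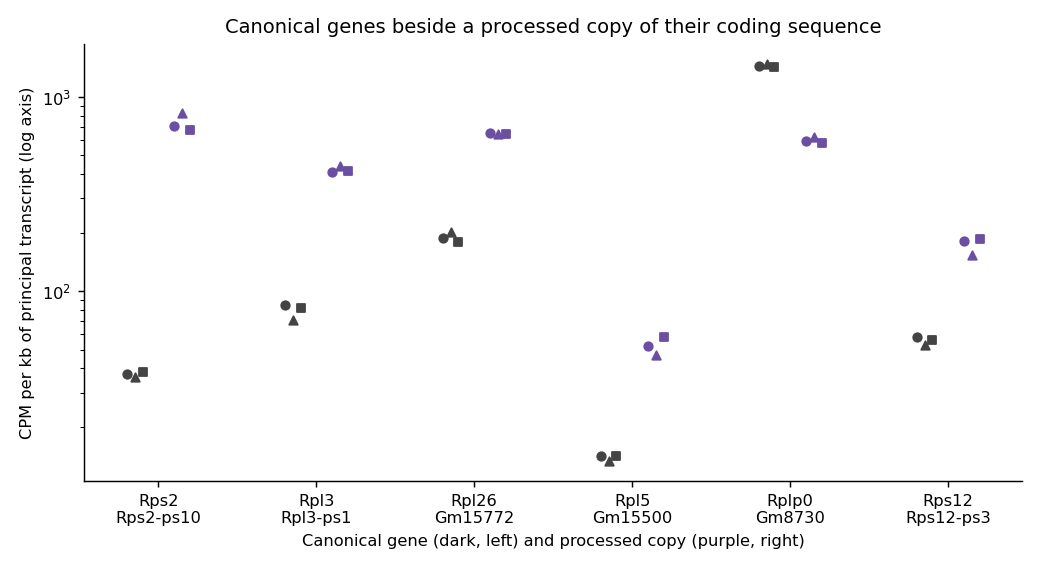
CPM per kb of principal transcript on a log axis for 6 canonical genes (dark) and a processed copy of each (purple), with 1 point per library. The copy is above the gene in each pair except Rplp0 and Gm8730.

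The libraries differed little in these genes. Between the 3 libraries, log2 CPM had an SD with a median of 0.06 in the 84 members tested and of 0.08 in all genes tested. Among genes whose mean reached 100 CPM the order turned, with a median of 0.06 in members and 0.05 in all such genes. The test of each gene against counting error alone (chi-square with 2 degrees of freedom on the library sizes, Benjamini-Hochberg over all genes) called 72 of the 84 members, beside 43.9% of all genes tested. The members' counts are high, with a median of 11843 per library, and at such counts small differences can be called. At or above 100 CPM it called 61 of 66 members, beside 75.6% of all such genes.

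A difference of more than 1.2-fold between the highest and lowest library was called for 10 members, beside 11.4% of all genes tested. At or above 100 CPM the count was 6 of 66, beside 1.88% of all such genes. The 10 were Rplp1, Rpl41, Rpl36, Rps21, Rpl35, Rps29, Rps18, Rpl10, Rpl29 and Rps27. The members with the largest SD were Rpl6l, Rps18, Rpl41, Rpl29 and Rpl35. Rpl41 was at 1069, 1434 and 1107 CPM and Rpl35 at 220, 277 and 232 CPM, both highest in replicate 2. Rps18 was at 75.8, 64.4 and 88.9 CPM and Rpl29 at 30.8, 23.7 and 26.1 CPM, both lowest in replicate 2. Rpl6l had 81, 96 and 56 counts and was not called (adjusted p = 0.065 by the chi-square test).

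Replicate 2 was above both others in 39 of 84 members, beside 39.7% of all genes tested, and below both in 27, beside 37.4%. At or above 100 CPM it was above both in 36 of 66 members, beside 1242 of 2613 such genes, and below both in 16, beside 991. The differences in these shares were not tested. The members above had a median GC content of 53.1% and those below 49.2%. Across members Spearman's rho between GC content and the deviation of replicate 2 was 0.43, and over all genes tested it was 0.50. At or above 100 CPM it was 0.51 in members and 0.81 in all such genes. These are descriptions over genes of the same libraries. The median deviation over members was -0.02, 0.02 and 0.00 on the log2 scale in replicates 1, 2 and 3. The part of GC content in the differences was not tested.

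Pyrimidine tracts were present at the starts of some of the genes. Promoters were matched in the RefSeq table for GRCm38 for 57 of the 77 canonical genes. A C followed by at least 4 pyrimidines at the annotated start was present in 13 of them, or 22.8% (95% Wilson interval 13.8% to 35.2%), beside 3.01% of all 27025 genes with a promoter. Within 10 bases of the start the shares were 59.6% (interval 46.7% to 71.4%) and 34.4%, with 44.9% (33.8% to 56.6%) of mitochondrial ribosomal protein genes. In the GENCODE models, 34 of the 77 genes had a transcript that began with such a tract, or 44.2%, beside 8.56% of protein-coding genes and 8.97% of mitochondrial ribosomal protein genes; the number of transcripts per gene was not adjusted for.

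The starts of 7 genes that have a tract at the annotated start are printed, with the part of the tract from that start on in capitals. Each print runs from 20 bases before the start to 10 from it on. Pyrimidines directly before the start are left in lower case. The tracts of Rpl35 and Rpl15, of 11 and 13 bases from the start, run past the printed end. The 7 genes include the variable genes Rpl35 and Rps18, and Rps27. On GRCm38 they are chr7:141447631-141447660 (Rplp2, plus), chr4:86857358-86857387 (Rps6, minus), chr2:39005122-39005151 (Rpl35, minus), chr14:18270977-18271006 (Rpl15, minus), chr11:114668560-114668589 (Rpl38, plus), chr17:33955656-33955685 (Rps18, minus) and chr3:90213639-90213668 (Rps27, minus).

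Rplp2: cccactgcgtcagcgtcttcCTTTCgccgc
Rps6: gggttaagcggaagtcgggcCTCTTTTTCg
Rpl35: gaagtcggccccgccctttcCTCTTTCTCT
Rpl15: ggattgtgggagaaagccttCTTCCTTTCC
Rpl38: ccggaagcggaagcctcgttCTTTCCCCgt
Rps18: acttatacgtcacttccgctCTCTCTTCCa
Rps27: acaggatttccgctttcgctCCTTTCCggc

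The letters CCGGAAG, the core of an ETS-type site, were found on either strand within the promoter window in 24 of 57 canonical genes, or 42.1%, beside 9.93% of all genes and 37.7% of mitochondrial ribosomal protein genes. The other letters searched on both strands were AAGATGGC (8.77% beside 3.19% of all genes and 17.4% of mitochondrial ribosomal protein genes), CACGTG (10.5% beside 8.09% and 7.25%) and TATAAA between 40 and 16 bases before the start (0 of 57 beside 2.98% and 0 of 69). A match is only a description of the letters.

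Other genes of the translation apparatus were read from fixed lists. The 17 other pyrimidine-start mRNAs, such as Eef1a1 and Eef2, the elongation factors, had a median of 231 CPM per kb of exon union, and Eef1a1 was the highest of them at 7430 CPM. Of these 15 were called as varying beyond counting error, as were 19 of 23 ribosome assembly genes (median 39.1 CPM per kb; Ncl, nucleolin, highest at 2027 CPM) and 5 of 10 growth control genes (median 11.97 CPM per kb; Larp1, which binds pyrimidine-start mRNAs, highest at 395 CPM). At or above 100 CPM the calls were 15 of 17, 15 of 16 and 3 of 6 in these lists, beside the 75.6% of all such genes. The canonical ribosomal protein genes had a median of 123 CPM per kb. The 83 genes with symbols of mitochondrial ribosomal proteins, which form the ribosome inside mitochondria, had a median of 17.9 CPM per kb. They include Mrpl23-ps1, Mrpl48-ps, Mrps36-ps1, Mrps36-ps2 and Mrps36-ps3, symbols with a pseudogene ending that the rule for members left out. Of the 83, 78 were tested and 41 of these were called, or 52.6%, beside 43.9% of all genes tested. At or above 100 CPM 7 of 7 were called.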

How the data were processed

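For each of 3 libraries the authors deposited whole-number read counts by Ensembl gene, not normalized. The submitters' processing notes name Trimmomatic, FastQC, HISAT2, HTSeq and the mm10 (GRCm38) build without versions; annotation, strand and the treatment of reads matching several genes are not given in the sources used here, and read length is unknown. TMM library sizes came from edgeR 4.0.16 (R 4.3.3). The alternatives were library totals and size factors of DESeq2 1.42.0. Lengths, coding sequences and 50-base windows came from GENCODE release M21 on GRCm38, promoters from RefSeq. Other values were computed in Python 3.11.15 with numpy 2.4.6, pandas 2.3.3, scipy 1.17.1, Biopython 1.88 and matplotlib 3.10.9.

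Genes reaching 10 counts in all 3 libraries were tested by a chi-square against TMM sizes, with Benjamini-Hochberg adjustment over 13814 genes at 0.05. Counts for these genes were also simulated with counting error alone (Poisson), the change being placed in replicate 2. There 131 of 200 genes changed by 1.2-fold and 171 of 200 changed by 1.5-fold were recovered, with 11 and 9 calls among unchanged genes. Variation between libraries beyond counting error was not simulated, so these calls give no error rate for the real libraries. Limits from 3 counts cover counting error only. Pairs were tested by exact sign-flip permutation.

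Members and lists (pyrimidine-start, ribosome assembly, growth control, mitochondrial ribosomal protein genes, and fibroblast, epithelial, blood and neuronal markers) were chosen with earlier results of these data known. Genes named are the paralog pairs, Rplp0, Rplp1, Rplp2, Rpsa, Rack1, Fau, Rpl5, Rpl11, Rps6, Rps19 and Rps27a, the 10 members of highest CPM, the 5 highest and 5 lowest canonical genes by CPM per kb, the 5 members of largest SD, the 5 highest named pseudogenes, Actb and members at or under 3 counts. Other names (Gm15772, Gm8730, Gm15500 and the remaining calls over 1.2-fold) were chosen after their values were seen. Results for a few genes that this rule takes, and a share of counts that includes them, are not reported here.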

Additional observations from a re-analysis of the deposited data

How the results depend on the processing

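Of the 87 alternative values for the main measurements, 71 stayed within the limit set for the measurement or, for ratios and pairs, kept their direction. This tally is no measure of robustness, because some limits could hardly be passed. For the share of counts, leaving 1 library out cannot move the mean of 3 by their SD, which was the limit. For the median SD of log2 CPM the limit was the main value itself. Another 11 moved and 3 changed direction, while 1 count fell and 1 rose beyond its limit. Members' mean CPM changed by at most 0.464% under DESeq2 size factors or library totals. The ratio of the 90th to the 10th percentile was 18.5 with the longest transcript, 19.7 with no length, 5.03 over members with under 10% of shared windows and, chosen after seeing the data, 15.2 with the principal transcript, 7.47 with both of these and 14.01 with pseudogene counts added. It ranged from 24.98 to 28.1 when 1 library was left out. Members called as varying were 53, 46 and 58 without replicates 1, 2 and 3, beside 32.9%, 12.5% and 34% of all genes tested. The median SD of log2 CPM was 0.04 to 0.06 in these fits. Per kb, 17 members were among the 100 highest genes. The ratio of 60S to 40S medians was 1.46 over members with under 10% of shared windows, and 0.808 to 0.829 without 1 library. Rpl36al against Rpl36a was -0.14 on the log2 scale with the longest transcript and -0.89 with the principal one. The shared windows had a median of 20.8% at 100 bases, 51.7% over the principal transcript and 92.4% over the coding sequence. The pyrimidine start was at 59.6% within 10 bases and 44.2% over transcript models. Where values moved, the cause was not tested beyond the sequence or genes each alternative uses. No paired analysis was possible because there is only 1 group. Depth limits the calls: Rpl8, with 89774 to 105411 counts, was called at a highest-to-lowest ratio of 1.08, and Rpl24, with 482 to 516 counts, was not called at 1.085.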
